A study of Mus musculus with 12 samples.

Results

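The comparison described here set 6 Angelman syndrome (AS) mice against 6 wild-type (WT) mice, with sex as a blocking factor, over the autosomal genes of the ventral hippocampus. Its members were the autosomal genes whose AS minus WT difference had the same sign in females and in males. They numbered 6730 of the 13135 autosomal genes tested, and 13858 genes were tested in all. Each genotype held 3 females and 3 males of the C57BL/6J strain, 12 to 16 weeks old, and polyadenylated RNA of each mouse's right ventral hippocampus gave 1 library. The AS mice are named only by their syndrome, so the allele they carried, and the parent it came from, are not stated in the sources used here. No treatment was named for any group.

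Angelman syndrome is a neurodevelopmental disorder that follows loss of the maternal UBE3A allele. UBE3A is a ubiquitin ligase of the HECT family: it attaches ubiquitin to other proteins, many of which are then degraded by the proteasome. In mature neurons the paternal copy is silenced by a long antisense transcript, so neurons depend on the maternal copy, while glia use both. The ventral hippocampus holds pyramidal neurons, granule neurons, interneurons and glia, and is known for its part in anxiety and in stress responses.

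Markers of hippocampal neurons were present in all 12 libraries. On the log2(abundance + 1) scale used throughout, the glutamate transporter Slc17a7 stood at 8.39 to 8.84, the pyramidal factor Neurod6 at 5.98 to 6.71 and the granule neuron factor Prox1 at 3.47 to 4.19. The striatal receptors Drd1 and Drd2 and the thalamic factor Tcf7l2 were low, at 1.10 to 1.98, 1.12 to 1.77 and 1.05 to 1.77. Prkcd and Fezf2, from the same list of thalamus, striatum and cortex markers, were higher, at 2.76 to 3.48 and 4.01 to 4.87. The range of Fezf2 reached above that of Prox1. How much neighbouring tissue the libraries held was not tested. Markers of the choroid plexus, the epithelium that lines part of the ventricles, set 4 libraries apart. The mean of that marker list was 4.01 in WT female 1, 4.90 in WT female 2, 4.73 in AS female 2 and 2.90 in AS male 2, against 1.42 to 1.84 in the other 8. The library labelled WT female 1 also had Xist, the RNA of the inactive X chromosome, at 0.35. The other females had it at 6.00 to 6.44 and the males at 0.17 to 0.52, so this library went against its label in Xist. Its mean over 4 Y-linked genes, 0.68, lay within the 0.24 to 0.93 of the other females and below the 3.86 to 4.19 of the males, as its label says. Depth is not known from the deposited values.

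No gene differed between AS and WT past the threshold. With limma, 0 of 13858 genes were higher and 0 were lower in AS at a Benjamini-Hochberg adjusted p under 0.05 (0% in each direction). The smallest adjusted p of an autosomal gene was 0.284. At an unadjusted limma p under 0.05 stood 704 autosomal genes (5.36%), of which 366 were higher (2.79%) and 338 lower (2.57%). Of the 704, 703 had the same sign in both sexes. The difference tested is the mean of the female and male differences, so a small p itself favours the same sign. That count is therefore no measure of agreement between the sexes. Without the library labelled WT female 1 the higher and lower counts were 365 and 360, and without AS male 2 the higher count was 562. No gene named below is therefore called changed, and differences are given as sizes with their standard errors (SE).

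Agreement between the sexes was slight across the genome. The difference had the same sign in both sexes for 51.2% of autosomal genes, of which 3603 were higher in both (27.4%) and 3127 lower in both (23.8%). Pearson's r between the female and the male differences was 0.009 across the 13135 genes and Spearman's rho was 0.035, as a description, since genes of one library are not independent. Leaving out single libraries moved r from -0.049, without WT female 3, to 0.077, without AS male 2. The same-sign share moved from 49.4%, without AS male 1, to 54.7%, without AS female 3. Without the 4 libraries high in choroid plexus genes the share was 51.3%, and without the library labelled WT female 1 it was 52.1%. Of the same-sign genes, 180 were higher by at least 0.2 in both sexes and 224 lower by at least 0.2, while 320 genes differed by at least 0.2 in opposite directions. Same-sign and opposite-sign genes were alike in median level (3.74 and 3.82) and in the share that code for protein (92.9% and 93.1%). The interaction of genotype and sex was past an adjusted p of 0.05 for 0 of 13858 genes (0%) and past an unadjusted p of 0.05 for 522 (3.77%).

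**Figure D1:**
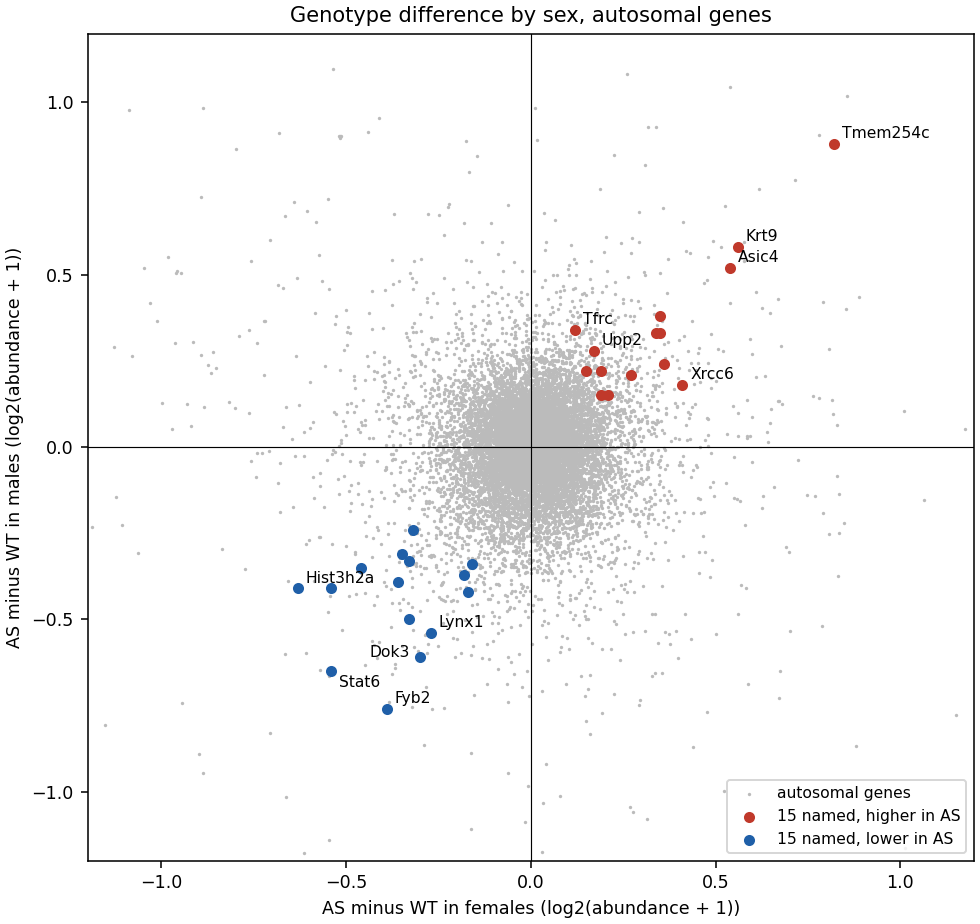
AS minus WT in females (horizontal) and in males (vertical), in log2(abundance + 1), for autosomal genes within 1.2 of zero on both axes. Grey points show no slope, and the 15 named genes in each direction lie in the upper right and lower left quadrants, where the rule that chose them places them.

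The 15 named genes of each direction are the same-sign autosomal genes with the smallest p, so their agreement between sexes is fixed by the choice. Among those higher in AS, differences ran from 0.17 to 0.85 and adjusted p from 0.284 to 0.581. In 7 of the 15, all 6 AS libraries lay above all 6 WT libraries, a separation that 29 of 13135 autosomal genes showed (0.221%). Tmem254c, a transmembrane protein gene on chromosome 14 (ENSMUSG00000072680, GRCm38 chr14:26063919-26067355), ran from 1.39 to 1.98 in WT (median 1.65) and from 2.22 to 2.92 in AS (median 2.48). Its lowest AS value lay above its highest WT value, and the difference was 0.85 ± 0.14 (SE).

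Tmem254c has near-identical copies, Tmem254a and Tmem254b, whose values moved the other way. Each of those copies differed by -0.42 ± 0.12 (SE). When the abundances of the 3 copies were added, the sum stood at 3.65 ± 0.13 (SD, n = 6) in WT and at 3.63 ± 0.10 (SD, n = 6) in AS. The sums overlapped over nearly their whole range, 3.50 to 3.87 in WT and 3.54 to 3.80 in AS. How the reads were divided among the copies decides the value of each, so the difference of Tmem254c alone is uncertain.

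Asic4, a member of the acid-sensing ion channel family (ENSMUSG00000033007, chr1:75450436-75474343), stood at 2.19 to 2.84 in WT (median 2.61) and at 2.89 to 3.30 in AS (median 3.06). All AS libraries lay above all WT libraries, by 0.53 ± 0.12 (SE). Xrcc6, which encodes the Ku70 subunit that binds broken DNA ends, stood at 3.43 to 3.66 in WT (median 3.53) and at 3.67 to 4.02 in AS (median 3.86). Its groups touched closely: the gap between the highest WT and the lowest AS library was 0.0068. Khdrbs2, an RNA-binding regulator of splicing in neurons, stood at 2.18 to 2.41 in WT (median 2.24) and at 2.50 to 2.88 in AS (median 2.58). Rimklb, an enzyme that joins glutamate to N-acetylaspartate or citrate, differed by 0.24 ± 0.054 (SE), and its libraries did not overlap either. Nudcd3, a chaperone partner of the dynein motor, differed by 0.17 ± 0.040 (SE), from 5.72 to 5.91 in WT to 5.94 to 6.02 in AS.

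The rest of the higher group overlapped between genotypes, apart from Upp2. Psme3, the PA28 gamma activator of the proteasome, differed by 0.18 ± 0.045 (SE), with 5.54 to 5.76 in WT and 5.70 to 5.98 in AS. Tfrc, the transferrin receptor through which cells take up iron, differed by 0.23 ± 0.058 (SE). It was one of 2 among the 30 genes of both directions with an unadjusted interaction p under 0.05: the difference was 0.12 in females and 0.34 in males, with an interaction p of 0.0493 that became 0.987 after limma's Benjamini-Hochberg adjustment. Epm2a, the glycogen phosphatase laforin, differed by 0.19 ± 0.046 (SE) and Tsen54, a subunit of the tRNA splicing endonuclease, by 0.36 ± 0.081 (SE). The epidermal genes Krt9 and Sbsn differed by 0.57 ± 0.13 and 0.33 ± 0.079 (SE). B4gat1, a glycosyltransferase for dystroglycan, and Mrnip, a DNA damage response gene, completed the group with 0.20 ± 0.047 and 0.30 ± 0.074 (SE).

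Upp2, a uridine phosphorylase gene (ENSMUSG00000026839, chr2:58567298-58792971), stood at 4.07 to 4.28 in WT and at 4.32 to 4.50 in AS. The predicted gene Gm13558, chosen after its values were seen, lies inside the span of Upp2 on the same strand and separated the genotypes further. It ran from 0.44 to 1.16 in WT and from 1.43 to 2.11 in AS, a difference of 0.94 ± 0.16 (SE) with an adjusted limma p of 0.284. Reads of these overlapping genes cannot be told apart with certainty.

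Among the genes lower in AS, differences ran from -0.59 to -0.25 and adjusted p from 0.322 to 0.581. In 6 of the 15, all AS libraries lay below all WT libraries, which held for 17 autosomal genes in all (0.129%). Lynx1, a membrane-anchored brake on nicotinic acetylcholine receptors (ENSMUSG00000022594, chr15:74747852-74753046), stood at 6.68 to 7.01 in WT (median 6.89) and at 6.22 to 6.61 in AS (median 6.47). All AS libraries were lower, by -0.41 ± 0.072 (SE), with -0.27 in females and -0.54 in males. Leaving out single libraries moved this difference from -0.44 to -0.35, and the smallest adjusted p among these fits was 0.128.

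Dlx1as, the RNA antisense to the interneuron factor Dlx1 (ENSMUSG00000084946, chr2:71516454-71537891), stood at 3.93 to 4.19 in WT (median 4.02) and at 3.69 to 3.87 in AS (median 3.74). The groups did not overlap, and the difference was -0.28 ± 0.054 (SE). Dlx1 itself differed by -0.17 ± 0.072 (SE), with -0.29 in females and -0.042 in males. The library kit is not described as keeping strand, so reads of the antisense pair cannot be told apart. In whole tissue, fewer cells of a type and less RNA per cell cannot be told apart either, here or below.

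Cd302, a C-type lectin receptor, ran from 3.35 to 3.58 in WT and from 3.01 to 3.30 in AS. Tubd1, the delta tubulin of centrioles, ran from 2.65 to 2.81 and from 2.23 to 2.54. Neither gene overlapped between genotypes, and both differed by -0.33, with SEs of 0.064 and 0.066. Stard5, a lipid transfer protein, and Ddit4l, an inhibitor of mTOR signalling, were also apart, with -0.25 ± 0.060 and -0.40 ± 0.10 (SE).

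Stat6, the factor that answers interleukin 4, stood at 2.05 to 2.68 in WT and 1.45 to 2.16 in AS, a difference of -0.59 ± 0.13 (SE). Irf3, which drives type I interferon, differed by -0.38 ± 0.094 (SE), and Dok3, an adaptor of immune cells, by -0.46 ± 0.11 (SE). Nmbr, the neuromedin B receptor, stood at 1.98 to 2.39 in WT and 1.54 to 2.03 in AS, with the lowest WT library, WT female 2, inside the AS range. Aifm3, a mitochondrial protein of the AIF family, differed by -0.17 in females and -0.42 in males and was the other of the 30 genes with an unadjusted interaction p under 0.05, which was also 0.987 after limma's adjustment. Fyb2 and Bcat2, the mitochondrial branched-chain aminotransferase, differed by -0.57 ± 0.14 and -0.28 ± 0.074 (SE). Stat6 overlaps Nab2 and Irf3 overlaps Bcl2l12, on opposite strands, so reads of these pairs cannot be told apart with certainty. The same limit holds for other named genes, among them Xrcc6 with Desi1, Mrnip with Sqstm1 and, on the same strand, Hist3h2a with Trim17.

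**Figure D2:**
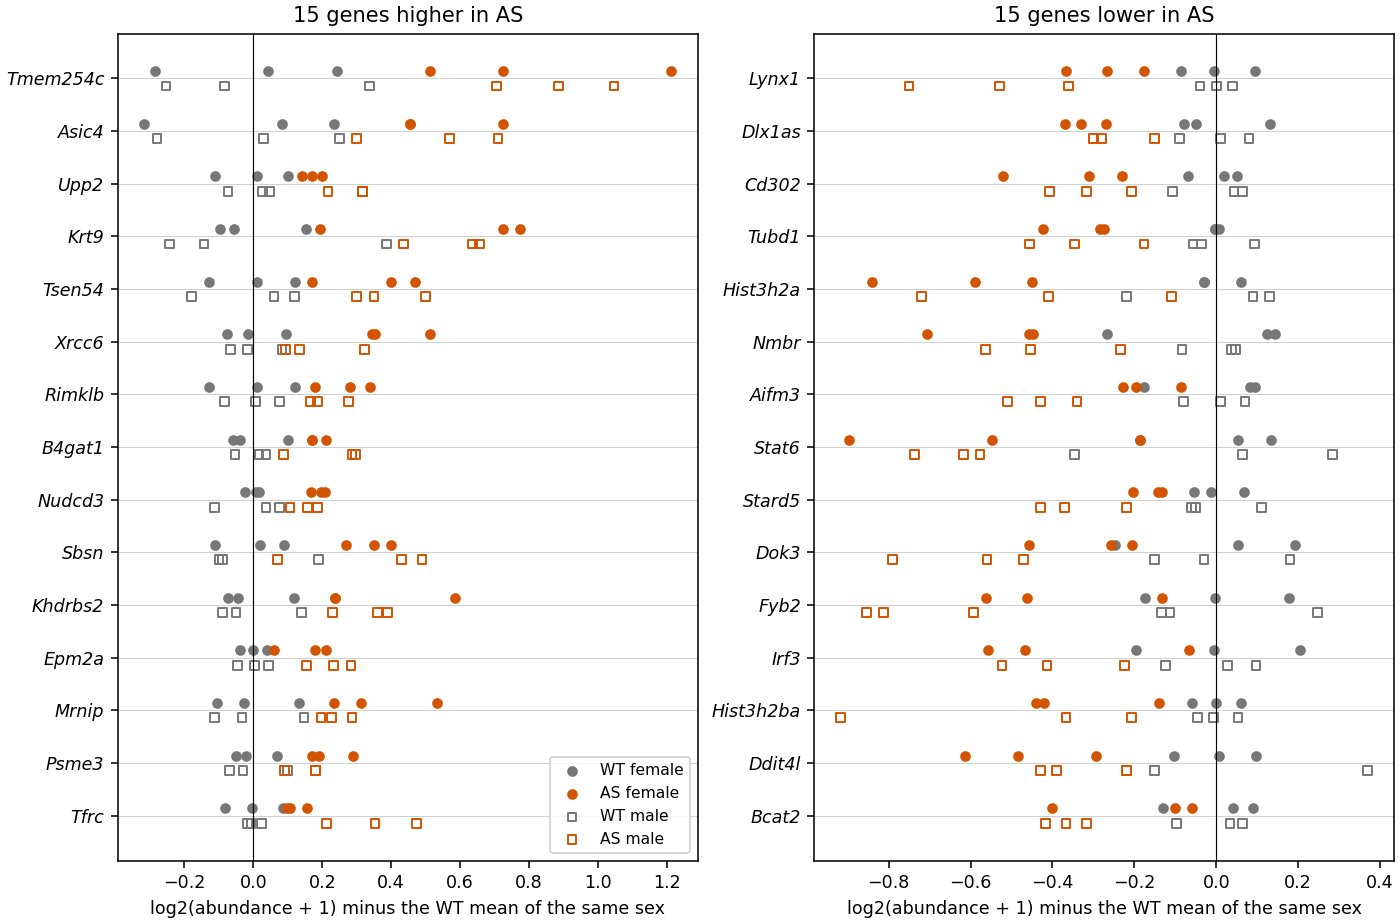
Values of the 15 named genes in each direction in every library, as log2(abundance + 1) minus the WT mean of the same sex. Filled circles are females, open squares males, grey WT and orange AS. In 13 of the 30 genes the 6 AS and 6 WT libraries did not overlap before this centring; Tmem254c spreads widest among the higher genes.

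Hist3h2a and Hist3h2ba, neighbouring replication-type histone genes on chromosome 11, were both among the 15 lower genes. Hist3h2a stood at 4.28 to 4.74 in WT (median 4.64) and 3.78 to 4.39 in AS (median 4.09). Only WT male 3 overlapped the AS range. The difference was -0.52 ± 0.11 (SE), and Hist3h2ba differed by -0.41 ± 0.10 (SE). The histone genes as a group were then examined, a choice made after these values were seen. Of 22 tested, 17 were lower, against 47.6% of all autosomal genes, and 13 were lower in both sexes, against 23.8%. The 1 gene higher in both was H2afy, by 4.8e-06 in females. The median difference was -0.15, against 0.0047 over all autosomal genes. At an unadjusted limma p under 0.05, 6 were lower, against 2.57% of all autosomal genes. Among them were H2afj at -0.45 ± 0.12 (SE), Hist1h2bc at -0.20 ± 0.055 (SE) and Hist2h2be at -0.22 ± 0.071 (SE). Hist3h2a and Hist3h2ba, which prompted the choice, are included in the median and in each count of lower genes. Many histone transcripts lack a poly(A) tail, and these libraries hold polyadenylated RNA, so the levels cover only the tailed forms.

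Chaperones of the endoplasmic reticulum, which fold secreted and membrane proteins and are raised together by the unfolded protein response, lay lower in AS. Of 25 genes tested, 22 were lower, against 47.6% of all autosomal genes, and 17 were lower in both sexes, against 23.8%. None was higher in both. The median difference was -0.10 over both sexes and -0.14 in each sex. At an unadjusted limma p under 0.05, 6 genes of the list were lower, against 2.57% of all autosomal genes. None of the 6 passed adjustment. Leaving out single libraries moved the median from -0.14, without WT female 3, to -0.084, without AS female 1. This list and those below were chosen with earlier results of these data known, and none was tested as a set.

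Xbp1, a transcription factor of the unfolded protein response (ENSMUSG00000020484, chr11:5520659-5525893), stood at 5.74 to 5.95 in WT (median 5.91) and 5.45 to 5.80 in AS (median 5.58). Its difference was -0.25 ± 0.069 (SE) with an adjusted limma p of 0.581. Calr, the calcium-binding chaperone calreticulin, stood at 8.33 to 8.63 in WT (median 8.52) and 8.06 to 8.40 in AS (median 8.27). In both genes the groups overlapped at one end, with AS female 2 and AS male 2 as the highest AS libraries. Pdia6 and Pdia3, which form disulfide bonds, differed by -0.22 ± 0.076 and -0.20 ± 0.088 (SE). Manf, a secreted stress-induced neurotrophic factor, differed by -0.29 ± 0.11 (SE). Sdf2l1, a chaperone cofactor, differed by -0.50 ± 0.20 (SE). Hspa5, the master chaperone BiP, stood at 7.12 to 7.85 in WT and 6.99 to 7.62 in AS. Its difference of -0.28 ± 0.14 (SE) was the same size in each sex and had an unadjusted limma p of 0.0693. Other members hardly differed. The 3 that were higher, Dnajb9, Ero1l and Sel1l, differed by 0.022, 0.015 and 0.011, and Atf4 differed by -0.010.

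The mean over the 25 genes was 5.31 to 5.57 in WT libraries and 5.23 to 5.45 in AS libraries. The 4 libraries high in choroid plexus genes were at 5.55 and 5.57 (WT females 1 and 2), 5.45 (AS female 2) and 5.39 (AS male 2), the last 2 being the highest of AS. WT male 2, low in those genes, was also at 5.57. Without these 4 libraries 24 of 25 genes were lower, 10 of them in both sexes, with a median of -0.12.

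Promoters of this list were searched for the endoplasmic reticulum stress response element, CCAAT and CCACG with any 9 bases between, on both strands in 250 bases before to 50 after the RefSeq start (GRCm38.p6). This search was chosen after the values were seen. The element was found in 39 of 32851 promoters (0.119%) and in 8 of the 21 list genes with a promoter entry (38.1%): Calr, Canx, Creld2, Dnajc3, Hsp90b1, Hspa5, Pdia6 and Syvn1. All 8 were lower in AS, 5 in both sexes, with a median of -0.161. The 17 list genes without a match, or without a promoter entry, had a median of -0.100, and 14 were lower, 12 of them in both sexes. Of 6 matching genes outside the list, 3 were lower and 3 higher, with a median of 0.002. A match describes letters only. Xbp1, Manf, Pdia3 and Sdf2l1, named above, had no match or no promoter entry. The 250 bases before the start of 4 of the 8 matching list genes are shown because they carry the element, in capitals on whichever strand it lies. In the order shown they are chr2:34771840-34772089 (plus strand), chr8:84846932-84847181 (minus), chr12:17266339-17266588 (plus) and chr10:86705445-86705694 (minus).
Hspa5: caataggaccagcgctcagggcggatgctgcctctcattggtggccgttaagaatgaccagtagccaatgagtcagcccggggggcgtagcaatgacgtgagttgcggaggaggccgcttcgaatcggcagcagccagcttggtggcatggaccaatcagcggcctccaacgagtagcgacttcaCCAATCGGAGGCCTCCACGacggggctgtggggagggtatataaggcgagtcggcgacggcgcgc
Calr: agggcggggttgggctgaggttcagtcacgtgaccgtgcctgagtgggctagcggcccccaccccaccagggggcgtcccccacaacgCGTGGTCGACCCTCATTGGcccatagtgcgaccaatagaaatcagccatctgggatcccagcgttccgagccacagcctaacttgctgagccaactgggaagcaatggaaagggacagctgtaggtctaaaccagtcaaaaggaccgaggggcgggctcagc
Pdia6: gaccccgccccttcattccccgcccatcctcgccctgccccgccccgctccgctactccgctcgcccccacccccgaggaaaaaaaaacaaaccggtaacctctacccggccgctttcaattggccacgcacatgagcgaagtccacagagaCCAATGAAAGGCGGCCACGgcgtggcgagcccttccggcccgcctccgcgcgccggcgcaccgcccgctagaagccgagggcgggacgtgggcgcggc
Hsp90b1: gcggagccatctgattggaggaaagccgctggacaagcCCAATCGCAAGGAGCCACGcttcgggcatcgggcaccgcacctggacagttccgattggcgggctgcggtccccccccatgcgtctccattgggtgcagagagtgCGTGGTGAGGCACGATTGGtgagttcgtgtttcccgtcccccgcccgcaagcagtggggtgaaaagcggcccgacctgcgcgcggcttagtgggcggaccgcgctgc
Hsp90b1, the endoplasmic reticulum form of HSP90, holds 2 matches on opposite strands, and its level differed by -0.18. In Hspa5 the match ends 46 bases before the start site.

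Chaperones of the cytosol and mitochondria leaned the same way by less. Of 26 heat shock genes tested, 21 were lower, against 47.6% of all autosomal genes, and 16 were lower in both sexes, against 23.8%. Their median was -0.050. At an unadjusted limma p under 0.05, 3 of them were lower, against 2.57% of all autosomal genes. The 3 at an unadjusted p under 0.05 were Hspe1, the mitochondrial co-chaperonin, at -0.17 ± 0.051 (SE), the small heat shock gene Hspb1 at -0.44 ± 0.16 (SE), and Hspa1b, an inducible HSP70, at -0.23 ± 0.086 (SE). Hspe1 stood at 6.93 to 7.17 in WT and 6.70 to 6.98 in AS, where only AS female 1 reached the WT range. Hspa1b has a near-identical copy, Hspa1a, between which reads may have been divided. The abundant HSP90 and HSC70 genes differed little, with -0.049 for Hsp90aa1, 0.022 for Hsp90ab1 and -0.027 for Hspa8. The median moved from -0.078, without WT male 1, to -0.033, without WT male 2. The heat shock element, GAA, TTC and GAA with any 2 bases between each, occurred in 5 of 21 promoters of the list (23.8%) and in 0.603% of all promoters. Of those 5 genes 4 were lower, and of the 50 other genes with the element 25 were lower. Of the 21 list genes without a match, or without a promoter entry, 17 were lower.

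Subunits of the TRiC chaperonin, which folds actin and tubulin, and of the proteasome leaned the other way. All 8 TRiC genes were higher, 4 in both sexes, by 0.0052 to 0.098, and none was at an unadjusted p under 0.05. Their median was 0.063, with -0.0032 in females and 0.083 in males. Without the 4 libraries high in choroid plexus genes 7 were higher, 2 in both sexes, with a median of 0.031. Of 33 proteasome genes 24 were higher, against 52.4% of all autosomal genes, and 16 in both sexes, against 27.4%, with a median of 0.041. Psmc2, an ATPase subunit, stood at 5.95 to 6.03 in WT and 6.04 to 6.17 in AS, without overlap, a difference of 0.10 ± 0.034 (SE). Psmd1, a scaffold of the proteasome base, and Psmd7 differed by 0.13 ± 0.047 and 0.083 ± 0.033 (SE). The median of the list was 0.010 in females and 0.080 in males.

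The tested genes of a list raised by glucocorticoid hormones were all lower in AS. The hormones act through receptors that bind DNA, and the list holds targets known from several tissues. The list was chosen with earlier results of these data known, so its counts are a description only. Of 19 autosomal genes tested, 19 were lower, against 47.6% of all autosomal genes, and 15 were lower in both sexes, against 23.8%. Map3k6, Zbtb16 and Fkbp5 were higher in females, and Errfi1 was higher in males. The list median was -0.25, with -0.16 in females and -0.31 in males. At an unadjusted limma p under 0.05 were 5 of them, against 2.57% of all autosomal genes, and none after adjustment. Mt2, a metal-binding metallothionein (ENSMUSG00000031762, chr8:94172664-94173568), stood at 7.06 to 7.80 in WT (median 7.48) and 6.82 to 7.45 in AS (median 6.98). The groups overlapped, with AS female 1 the highest AS library and WT female 2 the lowest WT library. Its difference was -0.41 ± 0.14 (SE) with an adjusted limma p of 0.797. Nfkbia, the inhibitor of NF-kappa-B, differed by -0.35 ± 0.13 (SE), and Ddit4, a brake on mTOR, by -0.28 ± 0.12 (SE). Gjb6, the astrocyte connexin 30, differed by -0.29 ± 0.13 (SE), and Klf9, a transcription factor, by -0.19 ± 0.081 (SE).

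The 2 largest differences of this list had wide spread. Sgk1, a kinase, ran from 4.71 to 6.03 in WT and from 4.63 to 5.54 in AS (-0.49 ± 0.24, SE), and Txnip, a regulator of glucose uptake, from 3.90 to 5.28 and from 3.82 to 4.81 (-0.45 ± 0.25, SE). Fkbp5, the co-chaperone of the receptor, differed by -0.085 ± 0.074 (SE), with 0.0075 in females and -0.18 in males. The mean over 20 genes, with the X-linked Tsc22d3 included, was 3.96 to 4.54 in WT and 3.79 to 4.16 in AS. WT male 1 at 3.96 and WT female 2 at 4.14 lay within the AS range. The receptor gene Nr3c1 differed by 0.086 ± 0.068 (SE) and the mineralocorticoid receptor gene Nr3c2 by 0.16 ± 0.11 (SE). The median of the list moved from -0.31, without WT male 1, to -0.17, without WT male 3, and was -0.22 without the 4 libraries high in choroid plexus genes, where again 19 of 19 were lower. The glucocorticoid response element, GNACA and TGTNC with any 3 bases between, occurred in 4 of 17 promoters of the list (23.5%), those of Map3k6, Mt1, Sgk1 and Txnip, and in 0.475% of all promoters. Of the 35 genes with the element outside the list, 21 were lower, with a median of -0.021. The 15 list genes without a match, or without a promoter entry, were all lower, as were the 4 with a match.

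Genes of cholesterol synthesis leaned higher by small amounts. Of 20 tested, 18 were higher, against 52.4% of all autosomal genes, and 14 in both sexes, against 27.4%. Their median was 0.076. Hmgcs1, the synthase early in the pathway, differed by 0.11 ± 0.052 (SE), and Lss, which forms lanosterol, by 0.16 ± 0.081 (SE). The 2 members that were lower were Mvk, the mevalonate kinase, at -0.13 ± 0.11 (SE), and the sterol reductase Tm7sf2, the one member at an unadjusted p under 0.05, at -0.27 ± 0.072 (SE), with -0.41 in females and -0.13 in males. The median was 0.045 without AS male 3 and 0.11 without AS male 2. Without the 4 libraries high in choroid plexus genes 18 were again higher, but 7 in both sexes. The sterol regulatory element, TCAC and CCAC with any 1 base between, was found in 1 of 14 promoters of the list, that of Hmgcs1, and in 1.24% of all promoters.

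**Figure D3:**
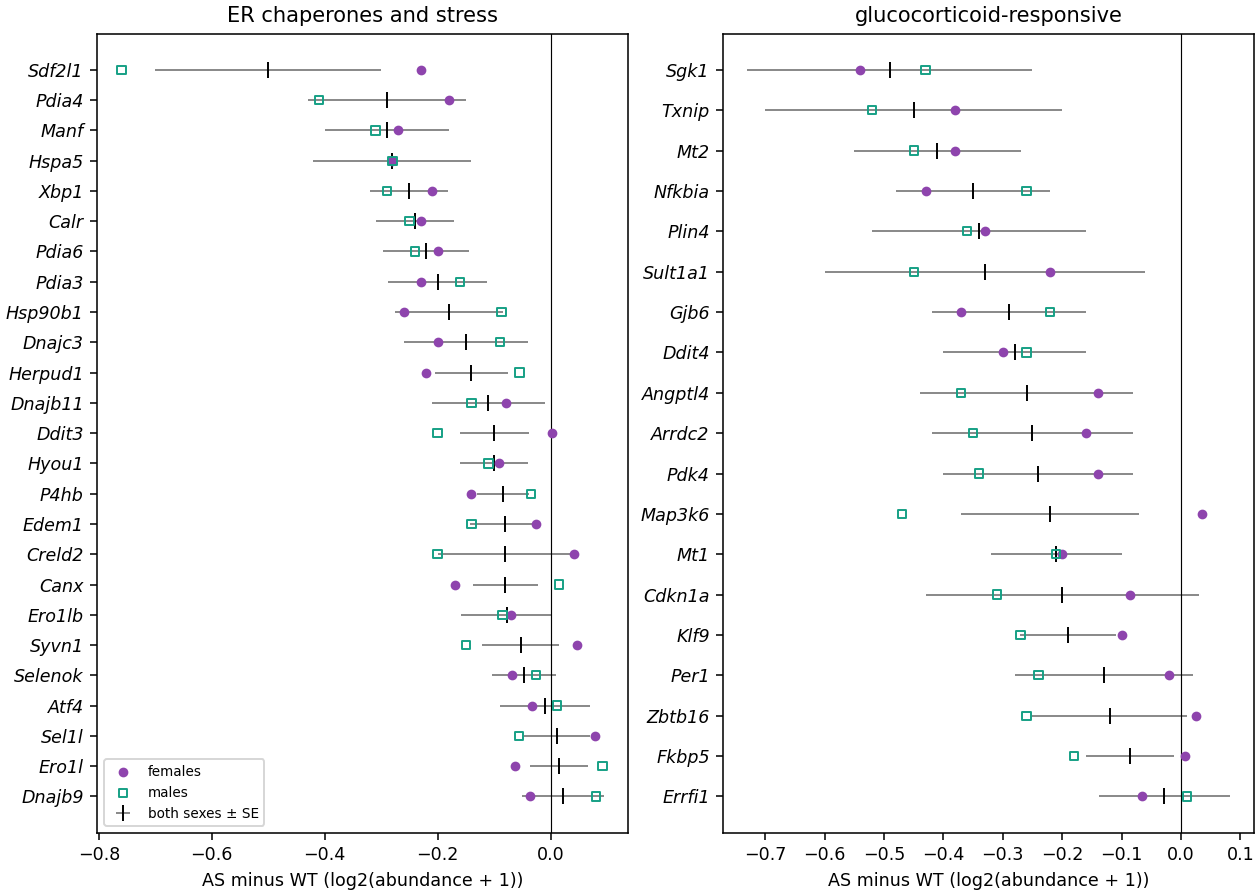
AS minus WT for each tested gene of 2 lists, in log2(abundance + 1). Black bars with grey lines are the difference over both sexes ± SE, purple circles females and green squares males. All 19 glucocorticoid-responsive genes and 22 of 25 endoplasmic reticulum genes lie below zero over both sexes.

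Ube3a itself (ENSMUSG00000025326, chr7:59228750-59311536) differed by -0.085 ± 0.090 (SE), with 3.99 to 4.34 in WT and 3.78 to 4.31 in AS. The groups overlapped almost fully, the adjusted limma p was 0.968, and leaving out single libraries moved the difference from -0.15 to -0.034. The gene overlaps the antisense transcript Snhg14, and the allele of the AS mice is not stated, so this level does not check the labels. Of 11 tested genes of the imprinted region and its neighbours on chromosome 7, 5 were higher and 6 lower. Among 25 HECT ligase genes 16 were lower, 9 in both sexes, none at an unadjusted p under 0.05, and among 25 reported substrates and partners of UBE3A 14 were lower and 11 higher, also with none. Their medians were -0.021 and -0.0073. Of all autosomal genes, 47.6% were lower and 23.8% were lower in both sexes.

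Markers of inhibitory interneurons lay lower in AS more often than not. Of 24 tested, 18 were lower, against 47.6% of all autosomal genes, and 11 in both sexes, against 23.8%. Their median was -0.093. At an unadjusted limma p under 0.05, 5 of them were lower, against 2.57% of all autosomal genes. These 5 were Lamp5 at -0.50 ± 0.15 (SE), Reln, the secreted matrix protein, at -0.37 ± 0.10 (SE), the peptide gene Vip at -0.28 ± 0.088 (SE), Dlx6os1 at -0.23, and Dlx1 as above. Reln stood at 4.37 to 5.06 in WT (median 4.59) and 4.02 to 4.70 in AS (median 4.21), and AS male 1 alone among AS was above the WT median. Lamp5 stood at 4.37 to 5.38 in WT and 4.01 to 4.53 in AS. WT male 2, at 5.38, was far the highest, and without it the difference was -0.35. Of the general markers of these cells, the GABA synthesis gene Gad1 differed by -0.099 ± 0.066 (SE), with -0.17 in females and -0.024 in males. Gad2 and the vesicular transporter gene Slc32a1 differed by -0.045 and -0.044, each with an SE of 0.082. The list median was -0.050 without WT female 3 and -0.13 without AS male 3.

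The synapse lists leaned in different directions by small amounts. Of all autosomal genes, 52.4% were higher and 47.6% lower. Of 32 synaptic vesicle genes 18 were higher and 14 lower, with a median of 0.0096. Of 19 postsynaptic scaffold and CaMKII genes 6 were higher and 13 lower, with a median of -0.042 that was 0.023 without the 4 libraries high in choroid plexus genes. Of 12 GABA-A receptor genes 9 were higher and 3 lower, with a median of 0.030 that was -0.038 without those libraries. Of 28 synaptic adhesion genes 17 were higher and 11 lower, with a median of 0.017. Sh3gl3, an endophilin, had all AS libraries above all WT libraries (4.60 to 4.83 against 4.87 to 5.32), by 0.12 in females and 0.46 in males, with an unadjusted interaction p of 0.0130 that was 0.987 after limma's adjustment. Vamp1 and Rims1, of the release machinery, were lower by -0.23 ± 0.086 and -0.18 ± 0.069 (SE). Lrrtm4, a synaptic adhesion protein, was higher by 0.26 ± 0.065 (SE), with 3.90 to 4.23 in WT and 4.17 to 4.50 in AS. Of 21 glutamate receptor genes 13 were higher and 8 lower, and Grik2 differed by 0.15 ± 0.063 (SE). The immediate early genes, which report recent activity, had a median of 0.14 in females and -0.16 in males, and 17 of 24 had opposite signs.

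Of 18 myelin genes 16 were higher, against 52.4% of all autosomal genes, and 12 in both sexes, against 27.4%. Their median was 0.13, with 0.055 without AS female 3 and 0.25 without WT male 2. Of 19 interferon-stimulated genes 17 were higher, with a median of 0.19, but the list mean was 3.82 in AS female 2 against 2.27 to 2.78 in the other 11 libraries. Without AS female 2 the median turned to -0.068. Ifit2 was the one member at an unadjusted p under 0.05, at 0.22 ± 0.090 (SE). Choroid plexus genes had medians of -0.96 in females and 0.42 in males, in step with the 4 libraries named above, and 22 of 23 had opposite signs. Among 18 astrocyte genes 12 were lower and 6 higher, with a median of -0.018. Without the 4 libraries high in choroid plexus genes 9 were lower and 9 higher, with a median of -0.0026. Glul, the glutamine synthetase, differed by -0.27 ± 0.10 (SE) and Aldoc by -0.11 ± 0.049 (SE), while Acsl6 differed by 0.27 ± 0.16 (SE) and Gfap by 0.089 ± 0.070 (SE).

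**Figure D4:**
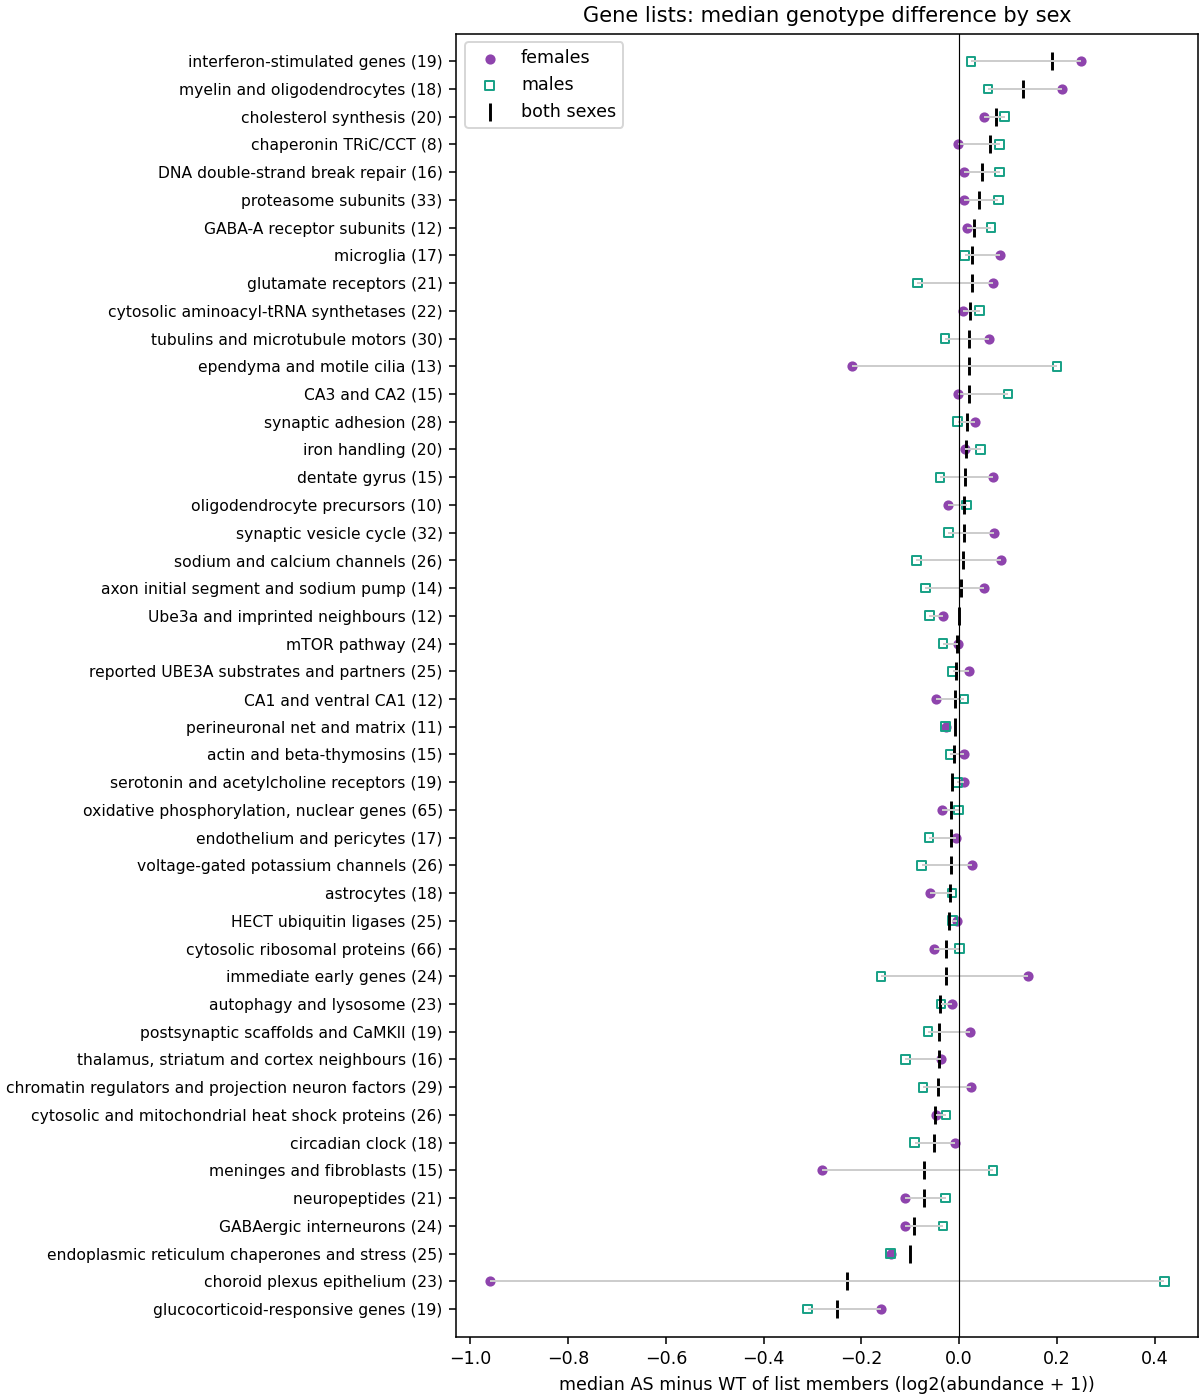
Median AS minus WT difference of each gene list, in log2(abundance + 1), in females (purple circles), males (green squares) and both sexes (black bars), with the number of genes tested. Glucocorticoid-responsive genes have the lowest median over both sexes, and the choroid plexus list spans -0.96 to 0.42 between the sexes.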

How the data were processed

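The submitters' processing notes name Trimmomatic, Bowtie2, RSEM and the mouse genome GRCm38 (mm10), without versions. The deposited table has 12 columns and 13951 genes, and its values were taken as the natural log of RSEM abundance plus 1. The log base, the abundance unit and the normalization are not given in the sources used here. The middle of the value range is identical across columns, and the table was treated as quantile-normalized there. With base 2 every difference would be 0.693 times as large. The values hold no counts, so the depth behind them is unknown and counting error cannot be given.

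All analyses used log2(abundance + 1), on which scale the change of low genes is understated. The filter was a mean abundance of at least 1, which 93 genes missed and 13858 met. Of the 13951 identifiers, 13735 had a symbol in the GRCm38 annotation. AS and WT were compared with limma 3.58.1 in R 4.3.3, with sex as a block, a variance trend and two-sided tests. P-values were adjusted by Benjamini-Hochberg over all genes tested. A fit of the 4 group means gave the differences by sex and the interaction. The design text counts 3 mice per group, so p-values measure the spread between mice. The blocked fit was tested on simulated data with independent noise, and the fit of the 4 group means was not.

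Named genes were the 15 same-sign autosomal genes with the smallest p in each direction, up to 4 members per list at an unadjusted p under 0.05, and Ube3a. Names of predicted genes were left out of the rule. Some genes the rule takes are not reported here. Others are named to complete a count or were chosen after their values were seen. The 46 gene lists, the members and the rules were chosen with earlier results of these data known, and no list was tested as a set. Promoter sequences are from RefSeq on GRCm38.p6. Alternatives covered the added constant, the filter, the log base, the model, library weights, the variance prior, normalization, choroid plexus content and each library left out in turn.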

Additional observations from a re-analysis of the deposited data

Results flagged for a closer look

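A check for single libraries far from the others of their genotype was made for the 30 named genes, in 60 groups of 6 libraries. In 2 groups the gap to the nearest library, as a share of the range, was past Dixon's critical value at 95%, where chance gives about 1 group in 20. Tubd1 in WT male 2 was at 2.81, above the other WT libraries at 2.65 to 2.68. Hist3h2a in WT male 3 was at 4.28, below the other WT libraries at 4.59 to 4.74. The Tubd1 value lies away from the AS libraries and the Hist3h2a value toward them.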

How the results depend on the processing

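Across 25 alternatives, the differences of 88 genes kept their sign in all 2186 values computed, and none of these genes passed an adjusted limma p of 0.05. All of the 88 but Ube3a had been chosen for a small p in the main model, and that choice made a change of sign unlikely. Genes named above with a larger p, such as Hspa8, Gad2 and Fkbp5, were not among the 88. The call count of 0 became 1 higher gene with library quality weights, and ran from 0 to 1 over single libraries left out. The gene in both cases was the X-linked Tmsb15b2, at 0.65 with weights, 0.66 without WT male 2 and 0.59 in the main model. Its Benjamini-Hochberg adjusted p from limma was 0.0417, 0.0299 and 0.222 in that order. Autosomal genes higher at an unadjusted p under 0.05 numbered 622 with weights, and 289 to 562 over single libraries left out, the highest without AS male 2. The same count of lower genes ran from 322 to 376, and same-sign genes from 6484 to 7184. With the table read as base 2, 13088 genes were tested, 0 were called, and 359 higher and 326 lower genes stood at an unadjusted p under 0.05. Of 1150 list medians, 5 moved by more than the spread between libraries, 4 of them without the 4 libraries high in choroid plexus genes. No paired analysis was possible because the replicate numbers were given in order of accession and link no mice. What depth limits could not be examined in values without counts.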

Other observations

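Clock genes, ribosomal proteins and iron genes add values that belong to no group above. Of all autosomal genes, 52.4% were higher and 47.6% lower, with 27.4% higher and 23.8% lower in both sexes. Of 18 circadian clock genes 14 were lower, 7 in both sexes, with Per2, a core repressor of the clock, at -0.22 ± 0.099 (SE). Of 66 ribosomal protein genes 44 were lower and 24 were lower in both sexes, with a median of -0.027 that turned to 0.0062 without AS male 2 and 0.0036 without the 4 libraries high in choroid plexus genes. Of 22 cytosolic aminoacyl-tRNA synthetase genes, which load amino acids onto tRNA, 15 were higher and 11 in both sexes, with a median of 0.022 that was -0.00023 without AS male 1. Of 20 iron genes 12 were higher, among them the ferritin heavy chain gene Fth1 at 0.15 ± 0.058 (SE) beside Tfrc. Of 21 neuropeptide genes 14 were lower, with Pnoc at -0.30 ± 0.092 (SE), while Tac2, the neurokinin B gene, was higher at 0.31 ± 0.10 (SE). In the mTOR pathway 12 of 24 genes were higher, with Rragd at 0.20 ± 0.063 (SE) and Tsc1 at 0.10 ± 0.043 (SE), and Lamtor5 was lower at -0.11 ± 0.048 (SE).

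By chromosome, the share of genes at an unadjusted p under 0.05 ran from 4.03% on chromosomes 9 and 19 to 8.21% on chromosome 13, with 4.85% on chromosome 7, which holds Ube3a. Several leading genes sit on chromosome 2. Between 58 and 72 Mb there, a window set after the values were seen, 10 of 66 genes were at an unadjusted p under 0.05 (15.2%), in both directions. These include Upp2, Gm13558, Cd302, Dlx1as, Dlx1, Baz2b at 0.24 ± 0.069 (SE), Scn7a at 0.49 ± 0.14 (SE) and the predicted gene Gm13577 at 1.64 ± 0.38 (SE). In fixed windows of 10 Mb with at least 20 genes, of which there were 216, the windows of chromosome 2 at 50 to 60, 60 to 70 and 70 to 80 Mb ranked 5, 12 and 32 by this share, and the highest share was 17.9%, on chromosome 13 at 20 to 30 Mb.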
